A study of Mus musculus with 16 samples.

Results

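Chemokine ligands are the secreted or membrane-tethered proteins that direct the migration of leukocytes, and their messages were examined here in mammary tumors of mice that carried a gene trap in *Resf1* and of wildtype mice. A gene was taken as a member when its symbol had the form Ccl, Cxcl, Cx3cl or Xcl followed by its number, or was *Ppbp* or *Pf4*, which are chemokines of platelets. Of the 40 such mouse symbols, 31 had a row among the 23609 genes of the table, and 29 of those had a mean value high enough to be tested. *Ccl1*, *Ccl19*, *Ccl20*, *Ccl21b*, *Ccl26*, *Ccl27b*, *Cxcl2*, *Cxcl3* and *Cxcl5* had no row among those used and were not analysed here.

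Every animal expressed the polyoma middle T antigen (PyMT) from the MMTV promoter, which drives it in the mammary gland and gives rise to spontaneous mammary tumors. The wildtype tumors came from MMTV-PyMT animals with intact *Resf1*, and the gene trap tumors came from MMTV-PyMT animals that were *Resf1* +/-, whose trapped copy holds a lentiviral cassette in the first exon that makes an EGFP-cre fusion and shortens the *Resf1* message. The trap came from a C57BL/6 line and was crossed to FVB mice with the MMTV-PyMT transgene, so all animals were hybrids, the groups were littermates, and the trap was a single germline insertion. Neither the labels nor the methods gave an age for these tumors. Of the 8 tumors that the labels list for each group, 5 wildtype and 5 gene trap tumors had values that could be matched and used, each a bulk sample of 1 tumor. In bulk RNA, fewer cells of a type and less RNA per cell cannot be told apart.

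Chemokines are sorted by the spacing of their first cysteines into the CC, CXC, CX3C and XC families, and they act on G protein-coupled receptors of the matching name. Inflammatory members are induced in macrophages, stroma and epithelium by cytokines through NF-kB, STAT and interferon-regulated transcription and recruit neutrophils, monocytes and T cells. Homeostatic members are made steadily in lymphoid organs and mucosal or skin epithelium, where they position lymphocytes and plasma cells. In mammary tumors, members of both kinds are made by the tumor epithelium and by the infiltrating stroma.

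The values were estimated counts normalized between tumors by the authors, so sequencing depth is unknown, and their sum over all genes was 31995100 in the lowest and 42153600 in the highest tumor. *Resf1* itself lay between 3517 and 4487 in wildtype tumors and between 3066 and 4029 in gene trap tumors, so that the groups overlapped. Its log2 fold change was -0.22 (unadjusted p 0.0313 and adjusted p 0.9997 in limma), and an exact two-sided permutation test gave p = 0.0635. All 8 tumor epithelium markers were tested and summed to between 86500 and 120089 per tumor, whereas 3 of 7 B and plasma cell markers had a row. Gene trap tumor 2 stood apart from the others. It held the highest value of the 10 tumors for 10 of the 29 tested ligands and for 22.4% of all tested genes, and values without it are given where a result rests on it.

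Per kilobase of transcript, the most abundant ligand was *Ccl8*, which draws monocytes, at 856 normalized units per kb (475 to 1324 across the 10 tumors). *Ccl6*, a ligand of myeloid cells, and *Cx3cl1*, the membrane-tethered ligand of macrophages and NK cells, followed at 480 per kb (233 to 832) and 479 per kb (395 to 647). *Ccl25* was at 413 per kb (324 to 553) and *Cxcl16* at 361 per kb (316 to 411). Each of these ranges overlapped that of the next ligand in this order, whereas the range of *Cxcl16* lay below that of *Ccl8*. At the other end, *Ccl22* was at 6.95 per kb (2.27 to 15.9), and the untested *Ppbp* and *Cxcl11* were lower still, at 5.87 and 2.82 per kb.

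**Figure D1:**
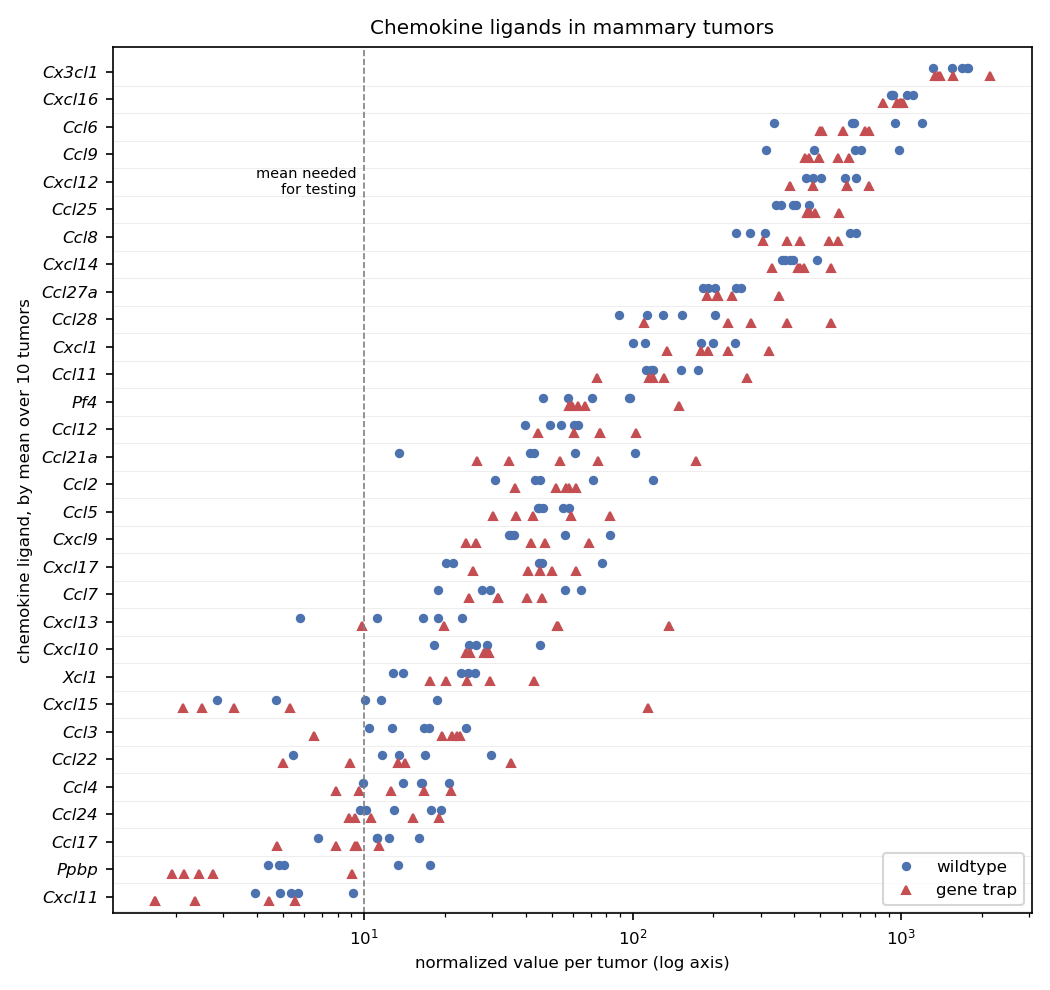
Normalized value of the 31 chemokine ligands in each tumor, on a log axis, with ligands ordered by their mean over the 10 tumors. Circles are the 5 wildtype and triangles the 5 gene trap tumors, the dashed line marks the mean of 10 needed for testing, and the circles and triangles overlap for every ligand.

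Between gene trap and wildtype tumors, limma called none of the tested ligands at a p under 0.05 after Benjamini-Hochberg adjustment over all 21034 tested genes. The share of all tested genes called by that rule was 0%, with 0 genes called. At an unadjusted p under 0.05, 3 of the 29 ligands were called, *Ccl25*, *Ccl28* and *Cxcl13*, against 479 of all tested genes (2.28%, of which 278 higher and 201 lower in gene trap tumors). All 3 were higher in gene trap tumors, 2 were called when gene trap tumor 2 was left out, and the list itself was not tested against that background. The smallest unadjusted p of a ligand was 0.0156, and its adjusted p was 0.9997. For 0 of the 29 ligands did the 5 values of one group lie entirely outside those of the other, and 0.528% of all tested genes were separated in this way.

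Of the 29 ligands, 14 had a higher and 15 a lower mean log2 value in gene trap tumors. Their median log2 fold change was -0.02, beside 0.00 for all tested genes, and it ranged from -0.05 to 0.08 over the alternative settings, on both sides of 0. A log2 fold change is the gene trap mean minus the wildtype mean of log2(value + 1), a scale on which the changes of low genes come out too small. The median 95% interval of a ligand reached 0.64 to either side of its log2 fold change, whereas the median over all tested genes was 0.35, so most ligands were measured with less precision than the typical gene.

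**Figure D2:**
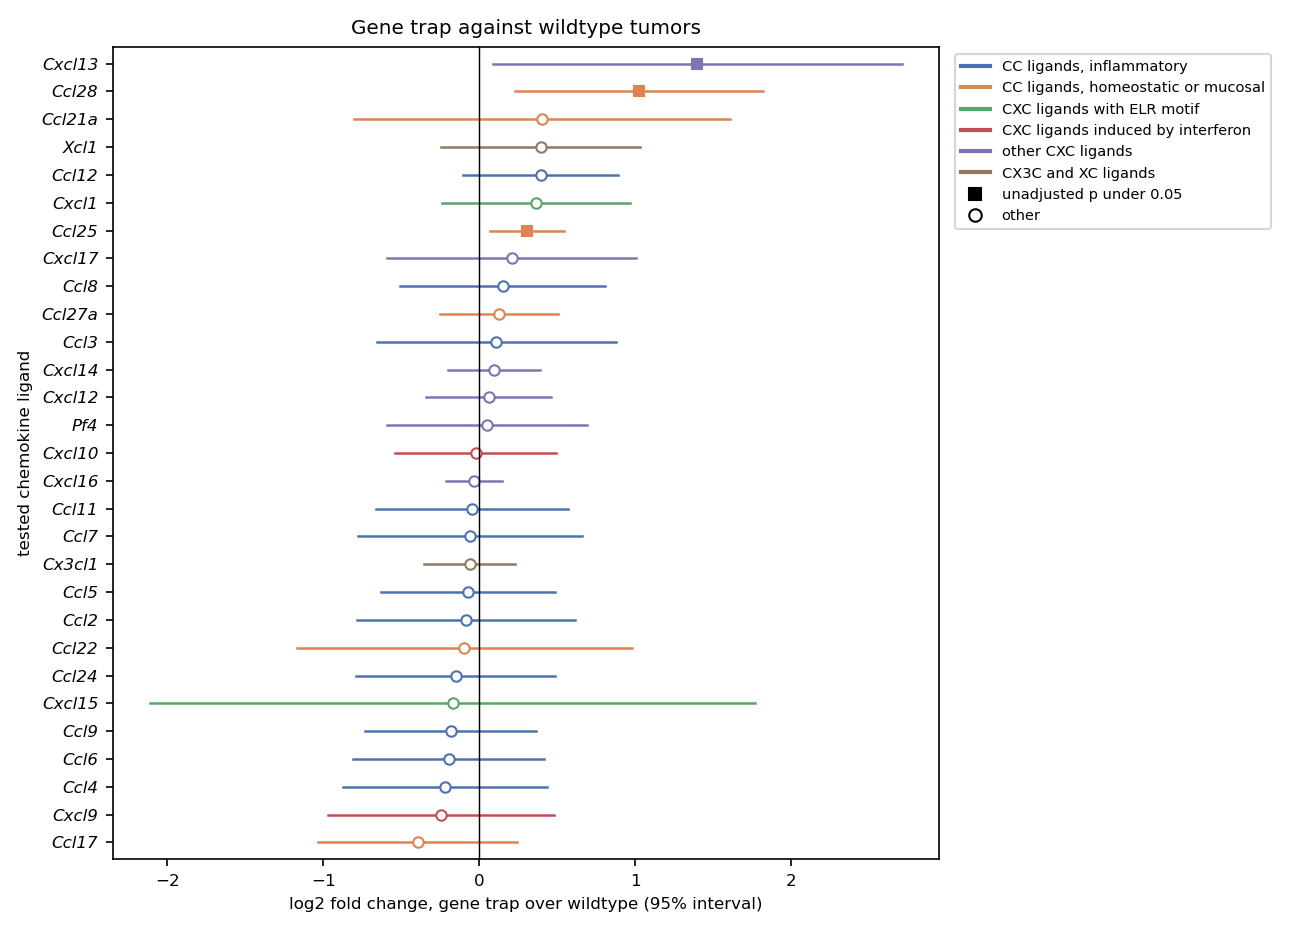
Log2 fold change of the 29 tested ligands, gene trap over wildtype, with its 95% interval from limma, coloured by the role of the ligand. Filled squares have an unadjusted p under 0.05, and only *Cxcl13* (1.40), *Ccl28* (1.03) and *Ccl25* (0.31) have intervals that leave out 0.

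Among the homeostatic and mucosal CC ligands, 6 of 10 had a row and all 6 were tested, 4 with a higher and 2 with a lower mean in gene trap tumors. *Ccl25* (ENSMUSG00000023235, chromosome 8), which draws lymphocytes to the thymus and small intestine through CCR9, and *Ccl28* (ENSMUSG00000074715, chromosome 13), which is made by mucosal and mammary epithelium and draws IgA plasma cells through CCR10, were both among the ligands called at an unadjusted p under 0.05. The 250 bases before their annotated start sites are shown because these were the ligands with the smallest p. They were taken from RefSeq on build GRCm38.p6, are written in the direction of transcription, and carry the motif TATAAA, searched on both strands, in capitals where it was found. The windows lie at chr8:4324960-4325209 and chr8:4349338-4349587 on the plus strand for the 2 start sites of *Ccl25* and at chr13:119623569-119623818 on the plus strand for *Ccl28*.
Ccl25, start site 1: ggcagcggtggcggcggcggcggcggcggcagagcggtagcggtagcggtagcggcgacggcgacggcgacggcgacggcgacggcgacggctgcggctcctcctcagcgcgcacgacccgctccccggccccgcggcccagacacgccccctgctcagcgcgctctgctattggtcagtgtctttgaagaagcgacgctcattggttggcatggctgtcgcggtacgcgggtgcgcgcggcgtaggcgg
Ccl25, start site 2: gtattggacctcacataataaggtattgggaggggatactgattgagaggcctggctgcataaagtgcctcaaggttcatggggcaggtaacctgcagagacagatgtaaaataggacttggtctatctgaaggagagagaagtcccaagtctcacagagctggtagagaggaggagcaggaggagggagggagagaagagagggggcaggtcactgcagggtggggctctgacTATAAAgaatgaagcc
Ccl28: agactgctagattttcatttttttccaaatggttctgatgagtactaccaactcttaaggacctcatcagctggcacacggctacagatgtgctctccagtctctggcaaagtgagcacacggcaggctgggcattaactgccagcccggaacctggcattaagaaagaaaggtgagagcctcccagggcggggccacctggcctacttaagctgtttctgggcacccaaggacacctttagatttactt

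Of the windows shown, the second of *Ccl25* held TATAAA at bases -16 to -11 and the other 2 held none of the motifs searched. TATAAA was present in 12.4% of all 32851 promoter windows of this length and in a window of 9 of the 22 ligands that had one.

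*Ccl25* was at 395, 452.4, 343, 358 and 407 in wildtype tumors 1 to 5 and at 459, 585, 451.5, 447 and 476 in gene trap tumors 1 to 5. Of the gene trap tumors, 3 lay above every wildtype tumor, and the groups overlapped only through wildtype tumor 2. The means were 391 ± 43.3 (SD, n = 5) and 484 ± 57.7 (SD, n = 5), a log2 fold change of 0.31 (standard error 0.11, 95% interval 0.07 to 0.54) with an unadjusted p of 0.0159 and an adjusted p of 0.9997 in limma's test. An exact two-sided permutation test over the 252 arrangements of the tumors gave p = 0.0238. Without gene trap tumor 2, the log2 fold change was 0.23, with an unadjusted p of 0.0307. *Ccl25* shares genomic sequence with *Elavl1* on the opposite strand, and whether the counting used strand is not given in the sources used here. The same holds for *Ccl6*, *Ccl27a*, *Cxcl10*, *Cxcl11*, *Cxcl16*, *Cxcl17* and *Xcl1*, which overlap another gene with a row, and for *Ccl2*, *Ccl21a* and *Cxcl15*, which overlap one without. *Elavl1*, which codes for an RNA-binding protein, had a mean of 2616 ± 134 (SD, n = 5) in wildtype and 2674 ± 114 (SD, n = 5) in gene trap tumors, with a log2 fold change of 0.03.

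*Ccl28* was at 130, 152, 88.8, 113 and 202 in wildtype tumors and at 377, 547, 111, 227 and 277 in gene trap tumors, each in the order 1 to 5. Gene trap tumors 1, 2, 4 and 5 lay above every wildtype tumor, and gene trap tumor 3 lay within the wildtype range. The mean was 137 ± 43.1 (SD, n = 5) in wildtype and 308 ± 164 (SD, n = 5) in gene trap tumors. This gave a log2 fold change of 1.03 (standard error 0.36, 95% interval 0.23 to 1.82) with an unadjusted p of 0.0156 and an adjusted p of 0.9997. The exact permutation test gave p = 0.0635, which misses the 0.05 threshold. Without gene trap tumor 2 the log2 fold change was 0.77 (unadjusted p 0.0382 in limma), and without gene trap tumor 3 it was 1.35 (unadjusted p 0.000602). The summed tumor epithelium markers were also highest in gene trap tumor 2, at 120089, and lowest among gene trap tumors in tumor 3, at 90692. Single markers were divided. Only *Krt18*, *Cldn3* and *Cldn7* were highest in gene trap tumor 2, while *Epcam*, *Krt8*, *Krt19*, *Cdh1* and *Elf5* were highest in other tumors. Gene trap tumor 3 was lowest of its group only for *Krt8*, *Krt18* and *Krt19*, and was highest of its group for *Cdh1*, at 13249. In other tumors *Ccl28* did not follow the sum. The sum was 91921 in gene trap tumor 1, where *Ccl28* was at 377, and 113605 in wildtype tumor 4, where *Ccl28* was at 113. The part of these markers in the difference was not tested. All 8 of these markers were detected, none passed an unadjusted p under 0.05, and their sum ranged from 86500 to 113605 in wildtype and from 90692 to 120089 in gene trap tumors.

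**Figure D3:**
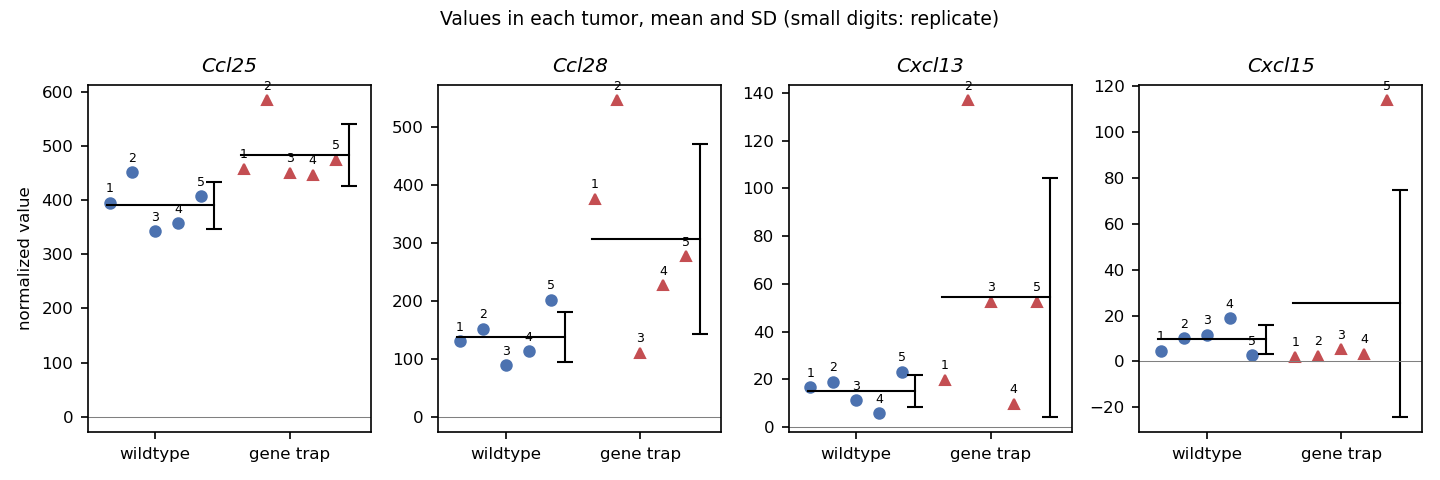
Normalized value of *Ccl25*, *Ccl28*, *Cxcl13* and *Cxcl15* in each tumor, with the small digit giving the replicate and the lines the mean and SD of 5 tumors. Gene trap tumor 2 is highest for the first 3 ligands, and *Cxcl15* stands at 114 in gene trap tumor 5 and at or below 18.8 in all others.

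*Ccl27a*, a skin ligand of CCR10, was at 243, 202, 191, 183 and 254 in wildtype tumors and at 189, 351, 207, 209 and 235 in gene trap tumors. Only gene trap tumor 2 lay above the wildtype range, and the log2 fold change of 0.12 (standard error 0.17) was within the spread between tumors (unadjusted p 0.486). *Ccl27a* overlaps *Il11ra1* on the opposite strand and has near-identical copies in the mouse genome, and how the counting divided their reads is not given in the sources used here.

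*Ccl21a*, a ligand of CCR7 that guides dendritic cells and naive T cells, varied over a 12.7-fold range. It was at 102, 42.9, 61.2, 13.5 and 41.4 in wildtype tumors and at 74.3, 53.5, 173, 34.7 and 26.4 in gene trap tumors. The highest tumor was gene trap tumor 3 and the lowest wildtype tumor 4, with overlap between the groups and a log2 fold change of 0.40 (standard error 0.55, unadjusted p 0.484). The difference rested on these tumors, since it was 0.0086 without gene trap tumor 3 and -0.0033 without wildtype tumor 4. Gene trap tumor 3 also had the highest summed markers of T and NK cells (739, against 227 to 556 in the others) and of B and plasma cells (364, against 17.0 to 214). The same held for dendritic cells (1244, against 891 to 1194) and lymphatic endothelium (865, against 557 to 829). Not every marker of these lists was highest in that tumor. Of the lymphatic markers only *Flt4* was, while *Lyve1*, *Prox1* and *Pdpn* were highest in other tumors. So were *Itgax*, *Zbtb46* and *Cd209a* of the dendritic list, which includes *Ccr7*. The same was true of *Ncr1*, *Klrb1c*, *Nkg7* and *Gzmb* of the T and NK cell list, and of *Jchain* of the B and plasma cell list. Sums of the other marker lists were highest in other tumors, and the part of any of them in the level of *Ccl21a* was not tested. *Ccl21a* too has near-identical copies, among which its reads may have been divided.

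*Ccl17* and *Ccl22* both bind CCR4, the receptor of regulatory and type 2 helper T cells. *Ccl17* was at 6.78, 12.5, 11.2, 11.2 and 16.1 in wildtype tumors and at 11.4, 9.42, 9.29, 4.74 and 7.86 in gene trap tumors. Although its log2 fold change of -0.39 (standard error 0.29, unadjusted p 0.203) was the lowest of the 29 with all 10 tumors in the fit, the groups overlapped and 4 of the gene trap tumors lay inside the wildtype range. Without gene trap tumor 4 the difference was -0.22, and with 10 instead of 1 added to each value it was -0.21. The mean of *Ccl17* over the 10 tumors, 10.04, was just above the mean of 10 needed for testing. In some of the fits that left out 1 tumor, *Ccl17* fell below that mean and was not tested. *Ccl22* spread from 5.03 to 35.2, and its groups had almost equal means of 15.5 ± 9.01 (SD, n = 5) in wildtype and 15.3 ± 11.7 (SD, n = 5) in gene trap tumors.

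Of the other CXC ligands, all 6 were tested, 5 with a higher and 1 with a lower mean in gene trap tumors, and 1 was called at an unadjusted p under 0.05. That ligand was *Cxcl13* (ENSMUSG00000023078, chromosome 5), which attracts B cells and follicular helper T cells through CXCR5. Its promoter window, at chr5:95956689-95956938 on the plus strand of GRCm38.p6 (RefSeq), is shown because *Cxcl13* had the largest log2 fold change of the 29 ligands. The capitals mark TATAAA at bases -46 to -41 from the start site.
Cxcl13: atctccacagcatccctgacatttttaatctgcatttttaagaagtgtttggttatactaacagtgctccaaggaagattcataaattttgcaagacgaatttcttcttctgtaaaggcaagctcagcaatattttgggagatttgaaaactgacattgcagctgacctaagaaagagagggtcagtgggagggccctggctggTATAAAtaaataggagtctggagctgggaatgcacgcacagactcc

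*Cxcl13* was at 16.6, 18.9, 11.2, 5.81 and 23.2 in wildtype tumors and at 19.9, 137, 52.6, 9.84 and 52.6 in gene trap tumors, each in the order 1 to 5. Gene trap tumors 2, 3 and 5 lay above every wildtype tumor, and gene trap tumors 1 and 4 lay within the wildtype range. The mean was 15.1 ± 6.79 (SD, n = 5) in wildtype and 54.4 ± 49.98 (SD, n = 5) in gene trap tumors. This gave a log2 fold change of 1.40 (standard error 0.60, 95% interval 0.09 to 2.71) with an unadjusted p of 0.0382 and an adjusted p of 0.9997 in limma's test. The exact permutation test gave p = 0.0873. The call was lost without wildtype tumor 3 (1.33, p 0.0702), wildtype tumor 4 (1.12, p 0.0964), gene trap tumor 2 (0.94, p 0.0962), gene trap tumor 3 (1.28, p 0.0783) or gene trap tumor 5 (1.28, p 0.0777), each in limma's test and unadjusted. Of the 7 B and plasma cell markers, 3 had a row, and their sum was 40.7 in gene trap tumor 2, the highest tumor for *Cxcl13*, against 17.0 in gene trap tumor 5 and 364 in gene trap tumor 3. It ranged from 22.1 to 214 in wildtype tumors. The receptor *Cxcr5* averaged 14.2 ± 5.30 in wildtype and 17.7 ± 24.1 in gene trap tumors (SD, n = 5 each), yet its log2 fold change was -0.29. Its higher gene trap mean rested on gene trap tumor 3, at 60.8. Gene trap tumors 1, 2, 4 and 5 were at 7.62, 8.65, 5.50 and 6.13, below every wildtype tumor (11.5 to 23.6).

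*Cxcl12*, the stromal ligand of CXCR4, was at 443, 503, 615, 469.7 and 678 in wildtype tumors and at 628, 630, 756, 385 and 467 in gene trap tumors. The groups overlapped over most of their range, and the log2 fold change was 0.06 (standard error 0.18). *Cxcl16*, a transmembrane ligand of CXCR6 that is also shed, had the smallest spread of all 29 ligands, a within-group SD of 0.11 on the log2 scale. It was at 920, 1108, 935, 1047 and 917 in wildtype tumors and at 962, 999, 1014, 853 and 989 in gene trap tumors, a log2 fold change of -0.03 with a 95% interval of -0.21 to 0.15.

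*Cxcl14*, which is made by epithelium and fibroblasts, was at 360, 396, 386, 371 and 485 in wildtype tumors and at 549.8, 434, 421, 330 and 414 in gene trap tumors. Gene trap tumor 1 was highest and gene trap tumor 4 lowest, and the log2 fold change was 0.09 (95% interval -0.20 to 0.39). *Cxcl17*, a mucosal ligand, lay between 20.2 and 76.9 over the 10 tumors. *Pf4*, the platelet factor that is also made by macrophages, lay between 46.4 and 149. For both, the 95% interval reached further than 0.5 to either side of 0.

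Of the inflammatory CC ligands, 11 of 13 had a row, and all 11 were tested. None was called at an unadjusted p under 0.05, with 3 higher and 8 lower mean values in gene trap tumors and log2 fold changes between -0.22 and 0.39. *Ccl6* and *Ccl9*, neighbouring genes of chromosome 11, code for ligands that act on myeloid cells through CCR1. Their promoter windows are shown because the levels of these genes followed each other most closely of all pairs of ligands. Both windows are from RefSeq on build GRCm38.p6, at chr11:83593088-83593337 for *Ccl6* and chr11:83578637-83578886 for *Ccl9*, and both are on the minus strand. The capitals mark TATAAA and a match to the NF-kB motif, both in the window of *Ccl9*. TATAAA lay at bases -224 to -219, on the strand opposite to the one shown. It was also held on either strand with matches that overlapped at bases -94 to -87. The NF-kB match lay at bases -35 to -26.
Ccl6: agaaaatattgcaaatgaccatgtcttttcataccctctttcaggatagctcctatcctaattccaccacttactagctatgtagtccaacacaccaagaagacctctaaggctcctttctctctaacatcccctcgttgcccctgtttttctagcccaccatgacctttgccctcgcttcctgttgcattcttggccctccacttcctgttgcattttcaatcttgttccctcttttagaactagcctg
Ccl9: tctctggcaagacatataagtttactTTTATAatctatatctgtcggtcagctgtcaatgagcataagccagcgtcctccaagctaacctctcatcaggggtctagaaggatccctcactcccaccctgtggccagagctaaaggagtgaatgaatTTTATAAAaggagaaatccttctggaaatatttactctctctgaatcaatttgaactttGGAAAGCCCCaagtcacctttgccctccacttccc

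The window of *Ccl6* held none of the 4 motifs searched. The NF-kB motif was present in 7.25% of all windows and in those of 3 ligands, *Ccl9*, *Cxcl1* and *Cxcl10*. The interferon-response motif TTTCNNTTTC was present in 2.98% of all windows and in those of *Cxcl10* and *Cxcl14*, and the STAT motif TTCNNNGAA in 7.02% of all windows and in those of *Ccl17* and *Cxcl14*. A match gives the letters of the motif and no more.

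*Ccl6* was at 336, 668, 947, 655 and 1198 in wildtype tumors and at 736, 758, 496, 506 and 605 in gene trap tumors. *Ccl9* was at 314, 707, 671, 473 and 978 in wildtype tumors and at 582, 638, 439.6, 455 and 495 in gene trap tumors. For both ligands wildtype tumor 1 was the lowest and wildtype tumor 5 the highest of all 10 tumors, so that the gene trap values lay inside the wildtype range. The log2 fold change was -0.20 (standard error 0.28, unadjusted p 0.499) for *Ccl6* and -0.18 (standard error 0.25, unadjusted p 0.484) for *Ccl9*. Without wildtype tumor 1 the difference of *Ccl6* was -0.46, with an unadjusted p of 0.0421, and without wildtype tumor 5 it was -0.0015, with an unadjusted p of 0.995. The same fits of *Ccl9* gave -0.41 (unadjusted p 0.057) and 0.0030 (unadjusted p 0.990).

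*Ccl8*, a monocyte attractant, was at 243, 311, 647, 273 and 677 in wildtype tumors and at 538, 582, 376, 307 and 419 in gene trap tumors. Its wildtype values fell into a low and a high set on either side of most gene trap values, and the log2 fold change was 0.15 (standard error 0.30, unadjusted p 0.628). *Ccl11*, an eosinophil attractant made by fibroblasts, was at 118, 119, 151, 113 and 175 in wildtype tumors and at 266, 115, 131, 73.8 and 119 in gene trap tumors. The highest value, in gene trap tumor 1, coincided with the highest sum of the 9 fibroblast markers, 147009 in that tumor against 50059 to 111363 in the others, and their part in it was not tested. The log2 fold change of *Ccl11* was -0.05 (standard error 0.28), and without gene trap tumor 1 it was -0.31.

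*Ccl4*, which draws T cells and macrophages, was at 14.0, 20.8, 16.5, 9.91 and 16.3 in wildtype tumors and at 12.6, 21.2, 7.88, 16.8 and 9.56 in gene trap tumors. The groups overlapped, and the log2 fold change of -0.22 (standard error 0.30, unadjusted p 0.478) ran from -0.39 without gene trap tumor 2 to -0.06 without gene trap tumor 3. *Ccl3* and *Ccl5*, which share receptors with *Ccl4*, had log2 fold changes of 0.11 and -0.07. Of the monocyte attractants, *Ccl2* had a log2 fold change of -0.09, *Ccl7* one of -0.06 and *Ccl12* one of 0.39 (95% interval -0.11 to 0.89). *Ccl24*, an eosinophil attractant, lay between 8.78 and 19.4 in all tumors.

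Among the CXC ligands with an ELR motif, which recruit neutrophils through CXCR2, 3 of 6 had a row and 2 were tested. *Cxcl1* was at 179, 239.8, 111, 199 and 100.2 in wildtype tumors and at 134, 322, 191, 181 and 227 in gene trap tumors. Gene trap tumor 2 was the only gene trap tumor above the wildtype range, and the log2 fold change was 0.36 (standard error 0.28, unadjusted p 0.213), or 0.20 without that tumor. *Cxcl15*, an ELR ligand known from lung epithelium, was at 114 in gene trap tumor 5 and between 2.12 and 5.30 in the other gene trap tumors, beside 2.84 to 18.8 in wildtype tumors. Its range, 53.8-fold, was the widest of the ligands. The mean value was higher in gene trap tumors (25.4 against 9.61) while the mean log2 value was lower, a difference of -0.17 (standard error 0.89).

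The interferon-induced ligands *Cxcl9*, *Cxcl10* and *Cxcl11* attract activated T cells and NK cells through CXCR3. The annotation used here types mouse *Cxcl11* as a polymorphic pseudogene, so whether its message codes for a working ligand in these tumors is not known. *Cxcl9* was at 35.3, 34.6, 82.8, 36.2 and 56.3 in wildtype tumors and at 69.1, 26.2, 47.3, 41.9 and 24.0 in gene trap tumors. The groups overlapped, and the log2 fold change was -0.24 (standard error 0.33, unadjusted p 0.475), with values of -0.45 without gene trap tumor 1 and -0.04 without wildtype tumor 3. *Cxcl10* was close to level, with a log2 fold change of -0.02 (95% interval -0.54 to 0.49), and both *Cxcl10* and *Cxcl11* overlap *Art3* on the opposite strand.

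The platelet chemokine *Ppbp* and the interferon-induced *Cxcl11* had means of 6.36 and 4.47, below the mean of 10 required for testing. *Ppbp* was at 17.6, 13.4, 4.41, 5.06 and 4.85 in wildtype tumors and at 2.75, 2.43, 9.04, 2.14 and 1.94 in gene trap tumors. Of the gene trap tumors, 4 lay below every wildtype tumor, with gene trap tumor 3 inside the wildtype range. *Cxcl11* was at 3.95, 9.09, 4.88, 5.71 and 5.37 in wildtype tumors and at 4.44, 2.35, 1.67, 5.53 and 1.67 in gene trap tumors, with 3 gene trap tumors below the wildtype range. When genes with a mean of at least 1 were admitted to the fit, a setting read for these ligands after their values were seen, the log2 fold change was -1.08 (unadjusted p 0.0337, adjusted p 0.9998 in limma) for *Ppbp* and -0.78 (unadjusted p 0.0395, adjusted p 0.9998) for *Cxcl11*. The exact permutation test gave p = 0.0714 for *Ppbp* and p = 0.0635 for *Cxcl11*. Of 5 platelet and megakaryocyte markers, 2 had a row, and their sum ranged from 107 to 184 in wildtype and from 90.8 to 216 in gene trap tumors.

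*Cx3cl1* and *Xcl1* make up the CX3C and XC families. *Cx3cl1* was at 1309, 1682, 1762, 1768 and 1548 in wildtype tumors and at 1337, 2143, 1564, 1397 and 1373 in gene trap tumors. Gene trap tumor 2 alone lay above the wildtype range, and the log2 fold change was -0.06 (95% interval -0.35 to 0.23). Without gene trap tumor 2 it was -0.18, with an unadjusted p of 0.0864 in limma's test. *Xcl1*, made by T and NK cells to attract cross-presenting dendritic cells, lay between 12.9 and 26.0 in wildtype and between 17.7 and 42.9 in gene trap tumors, and its log2 fold change was 0.39 (95% interval -0.25 to 1.03).

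**Figure D4:**
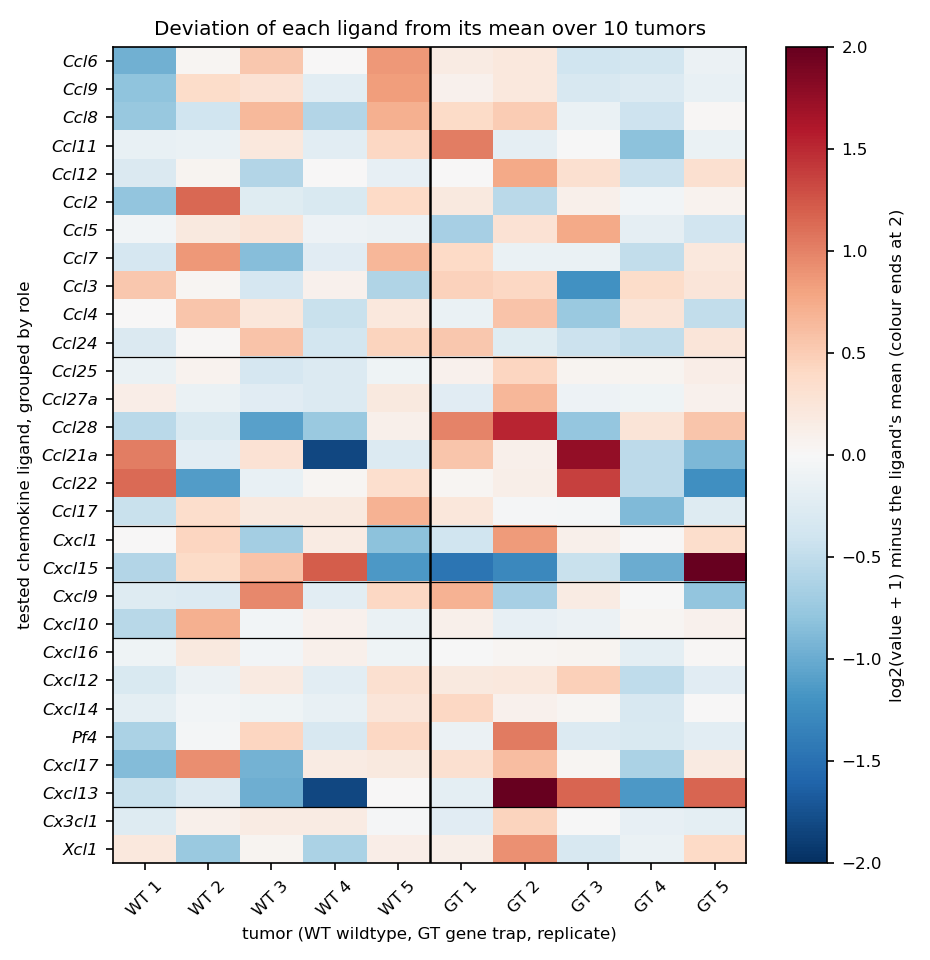
Deviation of each tested ligand from its own mean over 10 tumors, in log2(value + 1) units with the colour ending at 2, with ligands grouped by role and tumors in columns. Gene trap tumor 2 holds the highest value for 10 of the 29 ligands, and *Cxcl13*, *Ccl21a* and *Cxcl15* show the darkest cells.

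The ligands varied more between tumors of one group than genes at large. The median within-group SD was 0.50 on the log2 scale over the 29 ligands and 0.25 over all tested genes. Because low values vary more, the levels were also compared in bands. Among genes with a mean of at least 100, the median SD was 0.40 for the 12 ligands and 0.18 for 14122 genes, and it was over 0.5 for 41.7% of these ligands against 6.08% of these genes. Below a mean of 100, the medians were 0.57 for 17 ligands and 0.45 for 6912 genes. These values are descriptions, given with no test. After gene trap tumor 2, with 10 highest ligands, wildtype tumor 2 had the highest value for 5, whereas wildtype tumor 1 had the lowest value for 7 and gene trap tumor 4 for 6.

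Most CC ligands lie in gene clusters on chromosome 11 and most CXC ligands in clusters on chromosome 5, so correlations across the 10 tumors were computed for 13 pairs of tested neighbours. *Ccl9* and *Ccl6* gave a Pearson r of 0.94 (permutation p = 0.00021, adjusted p = 0.00273 over 13 pairs) and a Spearman rho of 0.92 (permutation p = 0.00044, adjusted p = 0.00572). Without wildtype tumors 1 and 5, which were farthest from the median, r was 0.80 over 8 tumors, and with each group's mean removed it was 0.94. The neighbours *Ccl2* and *Ccl7* gave r = 0.77 (permutation p = 0.00895, adjusted p = 0.0582) and rho = 0.79 (permutation p = 0.00906, adjusted p = 0.0589), with r = 0.67 over 8 tumors. Of the 13 pairs, 12 did not pass, *Ccl2* and *Ccl7* among them, and the median r over the 13 pairs was 0.12, beside 0.13 over the other 393 pairs of tested ligands.

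Over all 406 pairs of tested ligands, 43 had a permutation p under 0.05, 39 of them positive, and 0 had an adjusted p under 0.05. The pair of *Ccl6* and *Ccl9* had an adjusted permutation p of 0.0853 in this larger family. *Cxcl1* and *Cxcl9* had the lowest correlation, r = -0.87 (permutation p = 0.00168, adjusted p = 0.136) and rho = -0.84 (permutation p = 0.00356, adjusted p = 0.246), and r was -0.92 without wildtype tumor 5 and gene trap tumor 2. *Ccl25* and *Ccl28* were correlated at r = 0.84 (permutation p = 0.00221, adjusted p = 0.150) and rho = 0.81 (permutation p = 0.00697, adjusted p = 0.319), with r = 0.59 without wildtype tumor 3 and gene trap tumor 2 and r = 0.70 with each group's mean removed. The values of all 10 tumors had been normalized between tumors by the authors.

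**Figure D5:**
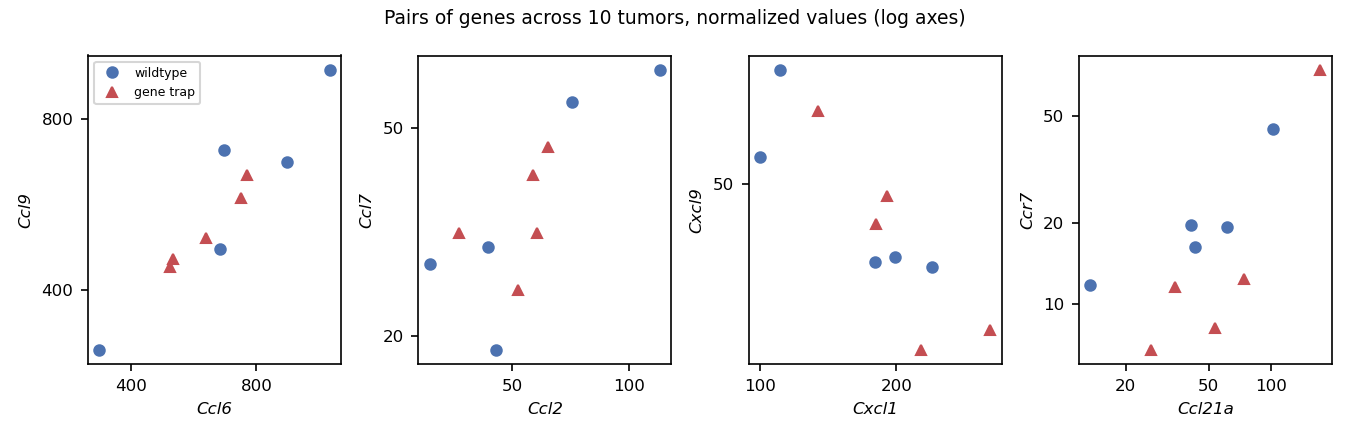
Normalized values of 4 pairs of genes in the 10 tumors, with log axes. Circles are wildtype and triangles gene trap tumors, and the points of *Ccl6* and *Ccl9* (r = 0.94) rise together while those of *Cxcl1* and *Cxcl9* (r = -0.87) run in opposite directions.

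The receptors of these ligands were compared in the same fit. Of 19 chemokine receptors, 13 had a row and 12 were tested, 8 higher and 4 lower in gene trap tumors, and 0 had an unadjusted p under 0.05. The most abundant per kb of transcript was *Cxcr4*, the receptor of *Cxcl12*, at 559 normalized units per kb. Its value was 1120 ± 244 (SD, n = 5) in wildtype and 898 ± 59.0 (SD, n = 5) in gene trap tumors, and the log2 fold change was -0.29 (standard error 0.14, unadjusted p 0.0677 in limma). Without wildtype tumor 2 it was -0.44 (unadjusted p 0.000504, adjusted p 0.989), and without gene trap tumor 3 the differences of *Ccr7* and *Cxcr5* were -1.02 (unadjusted p 0.0178) and -0.89 (unadjusted p 0.0109), all in limma. *Ccr9*, the receptor of *Ccl25*, was at 129 ± 28.3 and 144 ± 53.3 (SD, n = 5 each), and *Ccr10*, the receptor of *Ccl28* and *Ccl27a*, at 27.1 ± 5.73 and 29.7 ± 6.54 (SD, n = 5 each), with log2 fold changes of 0.10 and 0.12. Of the 5 atypical receptors, which bind chemokines without G protein signaling, 1 was higher and 4 were lower, and none passed.

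For 14 pairs of a ligand and its receptor, 0 correlations across the 10 tumors had an adjusted permutation p under 0.05. *Ccl21a* and *Ccr7* came closest, with r = 0.76 (permutation p = 0.0103, adjusted p = 0.145) and rho = 0.68 (permutation p = 0.0343, adjusted p = 0.381). Both were highest in gene trap tumor 3, where *Ccr7* was at 74.1. Without the 2 tumors farthest from the median of *Ccl21a*, r was 0.70 over 8 tumors, and with each group's mean removed it was 0.85. For *Cxcl1* and *Cxcr2*, r was 0.54 (permutation p = 0.107, adjusted p = 0.749), with rho = 0.64 (permutation p = 0.0544, adjusted p = 0.381) and r = 0.60 over 8 tumors. The values of r for the other 12 pairs lay between -0.42 and 0.48, the lowest for *Cx3cl1* with *Cx3cr1*.

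Genes that induce or process chemokines were compared in the same way. Of 16 inducing cytokines, 8 were tested, with 5 higher and 3 lower in gene trap tumors, and of the 14 genes of the NF-kB pathway, all tested, 8 were higher and 6 lower, with 0 at an unadjusted p under 0.05 in either list. Of 7 proteases and other modifiers of chemokines, 2 were higher and 5 lower, again with 0 called. The 12 lists of cell type markers likewise held 0 genes with an unadjusted p under 0.05. The summed macrophage markers lay between 10406 and 16616 in wildtype and between 10937 and 15073 in gene trap tumors. Of the 10 neutrophil markers, 6 had a row and 5 were tested, 3 higher and 2 lower, and *Ly6g*, *Mpo*, *Elane* and *Camp* had no row among those used. Their levels were unequal, with a mean over the 10 tumors of 29186 for *Ltf*, which mammary epithelium also makes, and of 523 for *S100a8*, which was highest in gene trap tumor 2, at 1962.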

How the data were processed

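Total RNA from mammary tumors was isolated with Trizol, made into libraries with the TruSeq Stranded Total RNA kit and sequenced. The submitters' processing notes name Partek, STAR 2.7.8a, DESeq2 and build mm39, and the counter and annotation are not given in the sources used here. The authors deposited a signal per gene, estimated counts to which median ratio normalization had already been applied. The table held 0 zeros and fractions with no common step, so depth and whole reads could not be recovered. Of 16 columns of values, 10 matched a tumor's label by name, and 6 named by animal number matched none and were not used. The labels give 16 tumors. They do not say whether each came from a separate animal, and p-values measure the spread between these samples.

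Gene symbols were matched for 22899 of 23609 identifiers. Transcript lengths (the longest protein-coding transcript) came from GENCODE mouse release 21, on an older build than the table, so gene coordinates are given only for RefSeq promoter windows on GRCm38.p6. Genes whose mean over the 10 tumors reached 10 were fitted on log2(value + 1) with limma 3.58.1 (R 4.3.3), with group as the only factor, empirical Bayes moderation along the mean-variance trend and Benjamini-Hochberg adjustment over all 21034 tested genes. The script was tested on simulated data. A list of regulators of the interferon response is not reported here. Single ligands were also compared by exact two-sided permutation, whose smallest p is 0.00794. Correlations used log2(value + 1) and two-sided permutation with 100000 resamples, adjusted within each family of pairs. Values in every tumor are given for the 12 tested ligands with the highest mean, for those with an unadjusted p under 0.05 and for the 3 largest log2 fold changes in each direction. Other ligands are given by range or count, except *Ppbp*, *Cxcl11* and *Cxcl15* and the ligand pairs outside the list of neighbours and receptors, which were picked with their values in view. The members, gene lists and tests were chosen with earlier results of these data known. Alternatives were other pseudocounts and filters, quantile normalization, no variance trend, weights per tumor, the replicate number as a block and each tumor left out. Figures were drawn with matplotlib 3.10.9 (Python 3.11.15).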

Additional observations from a re-analysis of the deposited data

Results flagged for a closer look

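Within each group of 5 tumors, the highest and lowest value of every ligand with a row was compared with the rest by Dixon's criterion (critical value 0.71). Of 62 groups screened, 8 held a value that stood apart. For independent and normally distributed values, chance gives about 1 in 20, or 3.1. The screen used values without logs, and ligands of 1 tumor are not independent, so an excess over chance cannot be read from these numbers. Gene trap tumor 2 held 4 of these values. *Cx3cl1* was at 2143 there, where the other gene trap tumors ran from 1337 to 1564. *Ccl25* was at 585, against 447 to 476, *Ccl27a* at 351, against 189 to 235, and *Pf4* at 149, against 58.1 to 66.7. This tumor also held the highest value for 22.4% of all tested genes.

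The other 4 values came from 3 tumors. *Cxcl15* was at 114 in gene trap tumor 5, where the others of its group ran from 2.12 to 5.30, the widest gap found. *Ccl3* was at 6.50 in gene trap tumor 3, below the 19.5 to 22.9 of the others, and *Ppbp* was at 9.04 in the same tumor, above the 1.94 to 2.75 of the others. *Cxcl14* was at 485 in wildtype tumor 5, against 360 to 396 in the other wildtype tumors.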

How the results depend on the processing

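With genes of a mean of at least 1, or with no filter, the ligands at an unadjusted p under 0.05 numbered 5, since *Ppbp* and *Cxcl11* were then tested. With weights per tumor, 1 receptor (*Cxcr4*) was called, and the log2 fold change of *Ccl11* turned from -0.05 to 0.045. Without a variance trend, *Cxcl13* had an unadjusted p of 0.051. With each group's mean removed, 1 ligand and receptor pair (*Ccl21a* and *Ccr7*) had an adjusted permutation p under 0.05. Leaving out 1 tumor at a time gave 2 to 4 ligands, 0 to 2 receptors (1 without wildtype tumor 2, 2 without gene trap tumor 3) and 308 to 692 genes at an unadjusted p under 0.05 (308 without wildtype tumor 4), and a median ligand log2 fold change of -0.05 to 0.08. Values with an unadjusted p over 0.05 changed sign in these fits, over ranges of -0.056 to 0.012 for *Cxcl16*, -0.41 to 0.0030 for *Ccl9*, -0.049 to 0.19 for *Cxcl12*, -0.021 to 0.35 for *Ccl8*, -0.024 to 0.20 for *Ccl27a*, -0.31 to 0.15 for *Ccl11* and -0.0033 to 0.70 for *Ccl21a*. The cause of these changes was not tested. *Ccl25* kept an unadjusted p under 0.05 in 20 of 20 alternatives (0.23 to 0.36), *Ccl28* in 19 of 20 (0.77 to 1.35, the exact permutation test being the exception) and *Cxcl13* in 12 of 19 (0.94 to 1.86). No limma setting gave a ligand, or any gene, an adjusted p under 0.05.

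Same-numbered tumors of the 2 groups come from different animals. Deviations of same-numbered tumors correlated at 0.10, -0.003, -0.16, 0.15 and -0.14. These correlations gave no sign of a pairing by number, but they cannot exclude one. With the number as a replicate block, 3 ligands and 426 genes had an unadjusted p under 0.05 and 0 an adjusted one. In that limma fit the unadjusted p was 0.0104 for *Ccl25*, 0.00264 for *Ccl28* and 0.00724 for *Cxcl13*. The unknown depth limits the ligands with low values, for which no counting interval could be given.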
